A study of Mus musculus with 37 samples.

Results

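Heat shock chaperones are proteins that bind unfolded or partly folded proteins and help them fold, refold or be degraded. In the classical heat shock response, HSF1 binds heat shock elements in DNA and switches on an inducible set of these genes within minutes, while related genes are expressed at a steady level. In the brain, stress-inducible Hsp70 is typically low at rest and is induced in glia and neurons by heat, ischaemia, injury and seizures. The data described here are the levels of 10 chaperone genes out of 21975 genes measured. Hspa1a and Hspa1b encode inducible Hsp70, Hsph1 encodes Hsp110, a nucleotide exchange factor for Hsp70, and Dnajb1 encodes an Hsp40 that delivers clients to Hsp70. Hspb1 encodes the small heat shock protein Hsp27, and Bag3 a co-chaperone that links Hsp70 and small heat shock proteins to autophagy. Hspa8 encodes constitutive Hsc70, Hsp90aa1 an inducible cytosolic Hsp90, Hspa5 the endoplasmic reticulum Hsp70 known as BiP, and Hspd1 the mitochondrial chaperonin Hsp60. The genes were found by their symbols among the Ensembl identifiers of both tables, and all 10 were present in each. The group was chosen by the level of Hspa1a, which was among the transcripts singled out as lower in PTE+ than in PTE- mice in the ipsilateral cortex. Values from that contrast are therefore given as a description, with no test.

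Cortical astrocytes were captured with magnetic beads that bind ACSA-2, and their RNA was sequenced 4 months after severe controlled cortical impact (CCI, a focal traumatic brain injury made with a piston on the exposed cortex) or sham surgery in male wild-type mice. Sham mice had the craniectomy and the EEG electrodes but no impact. The methods name the strain CD1 and the labels CD31. Injured mice were sorted by video and EEG recording into those that developed post-traumatic epilepsy (PTE+) and those that did not (PTE-). The ipsilateral cortex gave libraries of 5 sham, 10 PTE- and 4 PTE+ mice, and the contralateral cortex libraries of 5 sham, 9 PTE- and 4 PTE+ mice. Both hemispheres were present for 17 of 20 mice, namely 5 sham, 9 PTE- and 3 PTE+. Mice are called here by the names in the labels, which start with 8 or 9, a prefix of unstated meaning that was treated as a possible batch.

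Levels are in TPM, a unit of transcript abundance scaled to transcript length and to the same total in every library, which keeps no sequencing depth. The number of reads behind a value is unknown, and no counting interval is given. Astrocyte markers were high in all 37 libraries, with Slc1a3 at 1420 to 3308 TPM and Aldh1l1 at 250 to 576 TPM. Markers of other cells were present as well, with Mbp of oligodendrocytes at 114 to 3484 TPM, Cldn5 of endothelium at 79.9 to 584 TPM and Snap25 of neurons at 14.02 to 274 TPM. The ipsilateral library of PTE- mouse 9_14 stood apart, with 10727 genes above 0 TPM against 15599 to 18534 in the others, and Itgam, C1qa, Mog and Rbfox3 listed at 0. In bulk RNA of this kind, fewer cells of a type and less RNA per cell cannot be told apart.

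Hspa1a (ENSMUSG00000091971, chr17:34969190-34972156, minus strand, GRCm38) and Hspa1b (ENSMUSG00000090877, chr17:34956436-34959238, minus strand) are single-exon neighbours. Of the 100-base windows of the Hspa1a transcript, 47.1% occurred unchanged in Hspa1b, so how reads were split between the pair is uncertain. The share of the summed TPM listed under Hspa1a had a median of 35.8% and ranged from 27.5% to 48.2% over the 37 libraries. The pair was therefore also summed, and the sum is called Hspa1 from here on. A smaller overlap with Hspa1l, a testis-enriched relative, touched 4.67% of Hspa1a windows and 3.29% of Hspa1b windows.

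The 250 bases before the RefSeq transcription start (GRCm38.p6) are shown for Hspa1a, Hspa1b and Hspb1, the genes with the widest spread between mice, and for Bag3, one with a narrow spread. Capitals mark the 2-unit heat shock elements GAANNTTC and TTCNNGAA, searched on both strands, with overlapping matches drawn as 1 run.
Hspa1a: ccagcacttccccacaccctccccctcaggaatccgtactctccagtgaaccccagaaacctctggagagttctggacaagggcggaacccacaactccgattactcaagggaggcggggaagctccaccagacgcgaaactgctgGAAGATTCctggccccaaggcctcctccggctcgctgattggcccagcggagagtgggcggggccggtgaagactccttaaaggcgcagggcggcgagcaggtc
Hspa1b: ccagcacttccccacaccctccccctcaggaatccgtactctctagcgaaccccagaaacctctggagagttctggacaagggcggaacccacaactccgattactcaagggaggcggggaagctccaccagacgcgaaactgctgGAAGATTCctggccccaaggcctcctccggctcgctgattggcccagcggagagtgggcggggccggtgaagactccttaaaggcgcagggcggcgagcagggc
Hspb1: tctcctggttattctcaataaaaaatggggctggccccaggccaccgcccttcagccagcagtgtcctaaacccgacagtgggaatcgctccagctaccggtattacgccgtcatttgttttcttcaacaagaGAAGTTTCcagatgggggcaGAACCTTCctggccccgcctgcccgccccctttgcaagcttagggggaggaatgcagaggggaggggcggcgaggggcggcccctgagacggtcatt
Bag3: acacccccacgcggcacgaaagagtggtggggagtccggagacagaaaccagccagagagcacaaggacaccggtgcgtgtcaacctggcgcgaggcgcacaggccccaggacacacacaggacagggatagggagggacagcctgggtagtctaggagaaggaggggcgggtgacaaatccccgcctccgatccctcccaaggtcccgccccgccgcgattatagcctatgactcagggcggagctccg
The Hspa1a window is chr17:34972157-34972406 on the minus strand, the Hspa1b window chr17:34959239-34959488 on the minus strand, the Hspb1 window chr5:135887669-135887918 on the plus strand and the Bag3 window chr7:128523333-128523582 on the plus strand. At equal distance from the start, the windows of Hspa1a and Hspa1b had the same base at 247 of 250 positions, and both held GAANNTTC beginning 104 bases before the start. Hspb1 held GAANNTTC at 117 and at 97 bases before the start. No such element was in the Bag3 window, which says only that these letters are not in it. A 2-unit element in either order was found for 5 of the 8 members with a RefSeq window (Hspa1a, Hspa1b, Hspb1, Hsph1 and Hspd1). Some genes have more than 1 window, and the near identical Hspa1a and Hspa1b windows are not separate finds. Among members with this element, the SD of log2(TPM + 1) over all libraries was 1.60 for Hspa1a and Hspa1b and 0.72 for Hspb1. It was 0.37 for Hsph1 and 0.18 for Hspd1, which also hold the element. Among members with a window but no such element, it was 0.28 for Bag3, 0.29 for Dnajb1 and 0.36 for Hspa5. Whether the 2-unit element goes with the spread was not tested. Over all mouse windows of this length, such an element was in 12.8% of 32851 windows and for 3932 of 27025 genes. The 3-unit heat shock element was found in 0.466% of windows and, among the members, for Hspd1, in a window that lies inside its GENCODE gene model. Hspa5 held the endoplasmic reticulum stress element at 65 bases before the start, and 0.113% of windows hold it. Hspa8 and Hsp90aa1 had no window in the table used.

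Hspa8, Hsp90aa1 and Hspa5 were the most abundant of the 10. Hspa8 had a median of 823 TPM over the 37 libraries (533 to 1532), Hsp90aa1 of 346 TPM (225 to 552) and Hspa5 of 304 TPM (182 to 549). Hspb1 followed at 81.2 TPM (29.8 to 282) and Hspd1 at 79.8 TPM (64.2 to 106). Hsph1 at 22.2 TPM (13.8 to 43.0), Hspa1b at 19.4 TPM (4.82 to 233), Dnajb1 at 18.98 TPM (12.5 to 38.5), Bag3 at 17.4 TPM (11.6 to 27.3) and Hspa1a at 9.19 TPM (2.85 to 127) were lowest. Neighbours in this order had overlapping ranges, except Hspd1 and Hsph1, so that Hsp90aa1 and Hspa5, Hspb1 and Hspd1, and the 4 genes from Hsph1 to Bag3 are not separated from each other by their medians.

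The spread over libraries was widest for the inducible Hsp70 genes. The highest library exceeded the lowest by 44.7-fold for Hspa1a and by 48.4-fold for Hspa1b, and the SD of log2(TPM + 1) was 1.60 for each. Hspb1 spanned 9.46-fold (SD 0.72). The other members spanned 1.65-fold for Hspd1 to 3.11-fold for Hsph1, with an SD of 0.18 to 0.38. These spreads are over libraries of all groups and were not tested against each other.

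**Figure D1:**
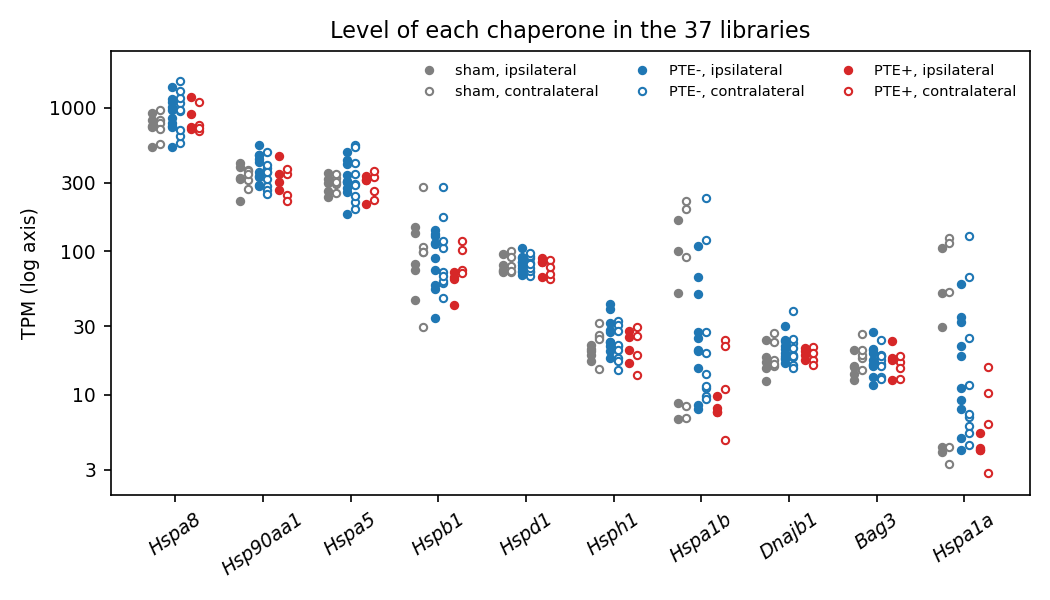
Each point is the TPM (log axis) of a chaperone in 1 of the 37 libraries, coloured by group, filled for ipsilateral and open for contralateral, with genes ordered by median level. Hspa1a and Hspa1b span 44.7-fold and 48.4-fold, Hspb1 spans 9.46-fold, and the 3 most abundant genes span 2.45-fold to 3.01-fold.

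In ipsilateral libraries, Hspa1 measured 10.8, 13.1, 80.7, 151 and 272 TPM in the sham mice 9_9, 9_10, 8_16, 8_15 and 9_11. It measured 11.7, 11.9, 13.4 and 13.85 TPM in the PTE+ mice 9_18, 9_19, 8_10 and 9_17. The 10 PTE- libraries ran from 12.5 to 168 TPM with a median of 37.4 TPM. The sham group thus held both the lowest and the highest value of the hemisphere, and the PTE+ libraries sat together near the bottom. Of the PTE- libraries, 8 of 10 were above every PTE+ library, and 2 lay within the PTE+ range. All 4 PTE+ libraries were below the PTE- median, but also above the lowest sham mouse, so the groups overlapped.

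As a description of the contrast that chose Hspa1a, Hspa1a averaged 4.47 TPM (SD 0.636) over the 4 PTE+ libraries and 20.4 TPM (SD 17.4) over the 10 PTE- libraries. The averages of Hspa1b were 8.25 TPM (SD 1.02) and 34.98 TPM (SD 31.6). The log2 fold changes, which are differences of mean log2(TPM + 1) throughout and understate the change of low genes, were -1.55 for Hspa1a and -1.53 for Hspa1b. Without the library of 9_14 they were -1.44 and -1.42. For the sum the difference was -1.60, with -1.94 in prefix 8, where 1 library was PTE+, and -1.34 in prefix 9. The remaining members lay between -0.51 for Hspb1 and 0.01 for Bag3 on the same scale. A gene is called changed here where limma gives an unadjusted p under 0.05 and the fold is at least 1.2. By this rule 2 of the 10 members were called, the pair that chose the group, against a background of 0.573% of 10473 genes, and nothing is read from that count. The limma p was under 0.05 for 63 genes before adjustment and for 0 after it. Neuronal markers had higher estimates in PTE+ for 6 of 6 genes (median 0.67, 0 called, sums of 213 to 338 TPM in PTE+ and 48.4 to 589 TPM in PTE-), with a median of 0.43 without 9_14, the library at 48.4 TPM. Microglial markers had lower estimates for 6 of 7 genes (median -0.12, sums of 137 to 259 TPM in PTE+ and 120 to 384 TPM in PTE-), and for 7 of 7 without 9_14 (median -0.39). Endothelial markers had higher estimates for 5 of 5 (median 0.27, and 0.30 without 9_14, sums of 284 to 1409 TPM in PTE+ and 277 to 952 TPM in PTE-). Oligodendrocyte markers had higher estimates for 4 of 5 (median 0.53, and 0.27 without 9_14). Their sums were 1122 to 2154 TPM in PTE+ and 774 to 2132 TPM in PTE-. Mural markers were higher for 3 of 4 (median 0.31) and oligodendrocyte precursor markers for 1 of 2. The median over all genes was 0.12. None of these markers was called, and their part in the Hspa1 values was not tested.

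**Figure D2:**
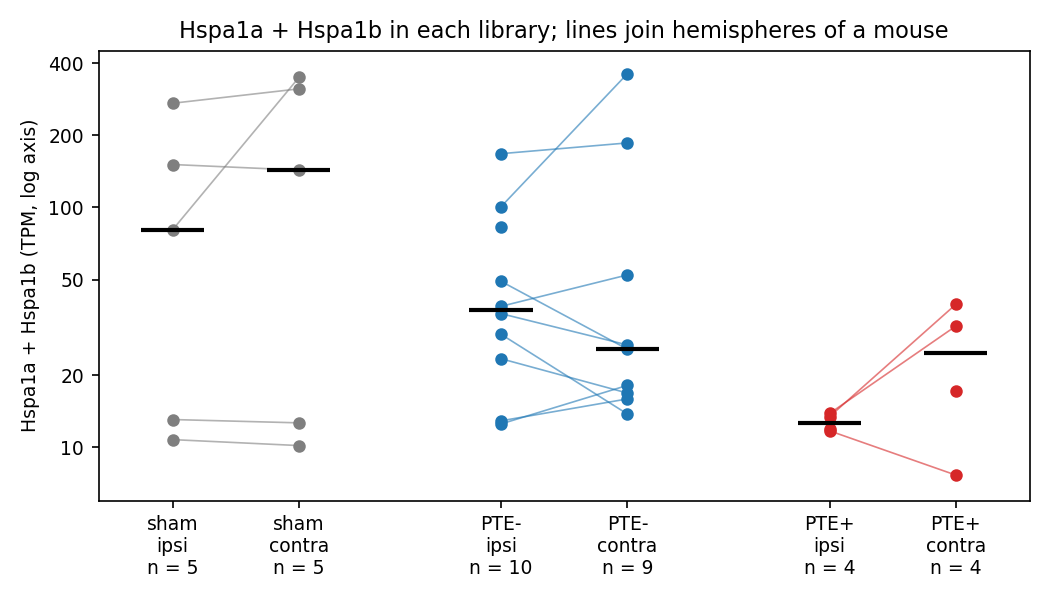
Points give Hspa1a + Hspa1b in TPM (log axis) for each library, by group and hemisphere, with black bars at group medians and lines joining the hemispheres of a mouse. Ipsilateral PTE+ libraries lie at 11.7 to 13.85 TPM, next to 2 sham mice at 10.8 and 13.1 TPM, while the other sham mice lie at 80.7 to 272 TPM.

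The contralateral cortex of the same groups was not used to choose the genes, although 3 of the 4 PTE+ mice contributed to both hemispheres. Contralateral Hspa1 measured 7.67, 17.2, 32.05 and 39.5 TPM in the PTE+ mice 9_18, 8_17, 9_17 and 8_10. The 9 PTE- libraries ran from 13.8 to 361 TPM with a median of 25.7 TPM. Mouse 9_18 lay below every PTE- library and the other 3 PTE+ libraries lay within the PTE- range, with 2 of 4 below the PTE- median and 3 of 9 PTE- libraries above every PTE+ library. The difference of mean log2(TPM + 1) was -0.88, and a two-sided exact permutation test over 715 arrangements gave p = 0.355. Within prefix 8 the difference was -1.70 and within prefix 9 it was -0.29, as values over 2 PTE+ libraries each. None of the 10 members was called in this comparison, where 2.79% of 10423 genes were. Hspa1a gave -0.85 ± 0.75 (log2 fold change ± SE throughout, limma unadjusted p = 0.270, adjusted p = 0.999) and Hspa1b -0.84 ± 0.75 (unadjusted p = 0.283). All 10 estimates were below 0, and the 8 others ran from -0.23 for Hspa8 to -0.06 for Hsph1. With array weights Hsp90aa1 gave -0.35 at an unadjusted limma p of 0.0352, in a fit that called 828 of 10423 genes. The neuronal markers were higher in PTE+ in 6 of 6 cases and the endothelial ones in 5 of 5, with median log2 fold changes of 0.65 and 0.72 and 1 call, Pecam1. Their summed levels overlapped, at 108 to 515 TPM in PTE+ and 30.4 to 492 TPM in PTE- for neurons and at 664 to 2120 and 438 to 1237 TPM for endothelium, and their part in the result was not tested.

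Injured mice were next set against sham mice in each hemisphere, which asks whether the chaperones differ long after the impact. In the ipsilateral cortex, Hspa1 averaged 43.2 TPM (SD 45.25) over 14 injured mice, below the 105.5 TPM (SD 109) of the 5 sham mice. The log2 difference of -0.90 did not pass a two-sided exact permutation test over 11628 arrangements (p = 0.260). The injured group holds the PTE+ and PTE- libraries from which Hspa1a was chosen, so for Hspa1a, Hspa1b and their sum this p is not independent of that choice. The log2 difference of Hspa1 was -1.40 within prefix 8 and -0.51 within prefix 9. No injured library lay above or below the whole sham range, because sham mice occupied both ends of it. None of the 10 members was called, against 1.62% of 10434 genes. Hsph1, which measured 17.3 to 22.1 TPM in sham and 16.6 to 43.0 TPM (median 24.4) in injured mice, gave 0.34 ± 0.19 (limma unadjusted p = 0.0828), and Dnajb1 gave 0.25 ± 0.15 (unadjusted p = 0.124). Calls appeared when 1 sham or PTE+ mouse was left out, namely Hsph1 without PTE+ mouse 8_10 (0.39, p = 0.0450), Dnajb1 without sham mouse 9_11 (0.36, p = 0.0298) and Hspa1b without sham mouse 9_9 (-1.46, p = 0.0486), each by limma and unadjusted. Of all genes, 183 of 10448 were called without 8_10, 415 of 10367 without 9_11 and 177 of 10458 without 9_9. Each of these mice lay at an end of its group for that gene, so leaving it out widens the difference by arithmetic. Hspa8 at 0.26 ± 0.17, Hsp90aa1 at 0.18 ± 0.16, Hspa5 at 0.09 ± 0.17 and Hspd1 at 0.05 ± 0.10 were within 2 SE of 0. Oligodendrocyte markers were lower in injured mice for 6 of 6 genes with 3 called. Their sum ran from 504 to 4016 TPM in sham, 774 to 2132 TPM in PTE- and 1122 to 2154 TPM in PTE+ libraries. Neuronal markers were lower for 6 of 6 genes (median -0.41, 0 called), and for 5 of 6 without 9_14. Of 8 astrocyte markers, 5 were higher with 2 called and 3 were lower. The part of these markers in the chaperone values was not tested.

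In the contralateral cortex, sham Hspa1 measured 10.2, 12.7, 143, 312 and 348 TPM in mice 9_9, 9_10, 8_15, 9_11 and 8_16. These were the same mice at the low and at the high end as in the ipsilateral cortex. The 13 injured mice averaged 62.5 TPM (SD 101) and the sham mice 165 TPM (SD 160). The log2 difference was -1.20, with p = 0.218 by a two-sided exact permutation test over 8568 arrangements. The differences within prefixes 8 and 9 were -1.91 and -0.90. Again none of the 10 members was called, against 4.05% of 10556 genes. Hspa1a gave -1.13 ± 0.81 (limma unadjusted p = 0.177) and Hspa1b -1.24 ± 0.81 (unadjusted p = 0.142). Calls appeared when a low sham mouse was left out, each by limma and unadjusted. Without sham mouse 9_9, Hspa1a gave -1.81 (p = 0.0369) and Hspa1b -1.90 (p = 0.0299), in a fit that called 883 of 10592 genes. Without sham mouse 9_10, Hspa1b gave -1.84 (p = 0.0392), in a fit that called 308 of 10492 genes. Leaving out a low sham mouse raises the sham mean, so the difference becomes more negative by arithmetic. Without sham mouse 8_15, 8_16 or 9_11, which had high Hspa1, 0 of 10 members were called. Bag3 at -0.21 ± 0.14 and Hspa8 at 0.24 ± 0.20 had the next largest differences. Astrocyte markers were lower in injured mice for 8 of 8 genes (median -0.13) and oligodendrocyte markers for 5 of 6 (median -0.41), beside -0.07 over all genes. Of both lists 0 were called, and their part in these values was not tested.

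**Figure D3:**
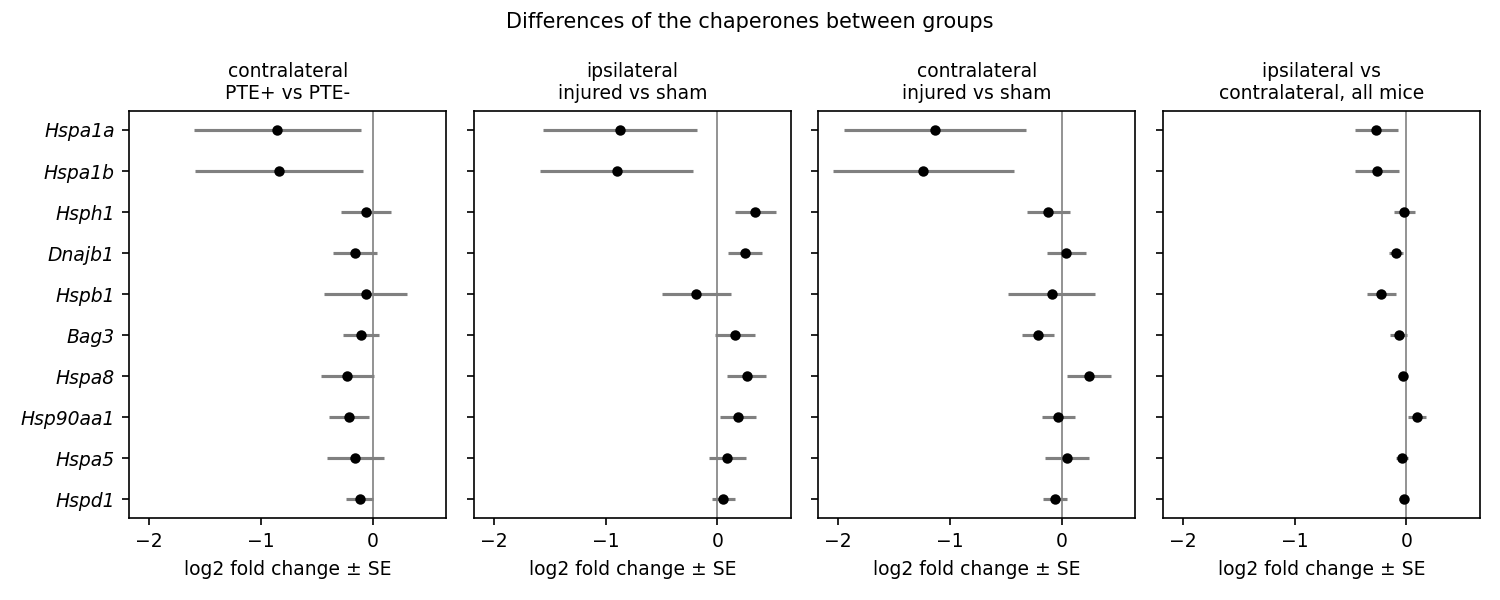
Points are log2 fold changes of the 10 chaperones from limma with bars of 1 SE, for contralateral PTE+ against PTE-, injured against sham in each hemisphere, and ipsilateral against contralateral over 17 mice. Hspa1a and Hspa1b have the widest bars, 0.69 to 0.81 in the group comparisons, and no gene is called in any of the 4 panels.

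The contralateral injured mice were also split by outcome. Against sham, PTE- mice had an Hspa1 difference of -0.93 (two-sided exact permutation p = 0.413 over 2002 arrangements) and PTE+ mice one of -1.81 (p = 0.206 over 126 arrangements, where the smallest possible p is 0.00794). The 2 comparisons share the sham mice. None of the 10 members was called in either, against 3.76% of 10564 genes for PTE- and 1.97% of 10640 genes for PTE+. In PTE+ against sham, Hspa1b gave -1.82 ± 0.99 (limma unadjusted p = 0.0931) and Hspa1a -1.72 ± 0.997 (unadjusted p = 0.110). Without sham mouse 9_9 the pair passed the threshold, with Hspa1a at -2.40 (p = 0.0172) and Hspa1b at -2.48 (p = 0.0152), and likewise without sham mouse 9_10, with -2.33 (p = 0.0294) and -2.42 (p = 0.0238), each by limma and unadjusted. Of all genes, 601 of 10686 were called without 9_9 and 184 of 10598 without 9_10. These are the 2 sham mice with low Hspa1, so leaving 1 out widens the difference by arithmetic. Without sham mouse 8_15, 8_16 or 9_11, 0 of 10 members were called. With array weights Hspd1 was called in PTE+ against sham, at -0.30 (limma unadjusted p = 0.0495), in a fit that called 1114 of 10640 genes. Endothelial markers were higher in PTE+ than in sham mice for 5 of 5 genes (median 0.51, 1 called). Their part in the chaperone values was not tested. In the ipsilateral cortex, where the PTE+ values belong to the choice of the genes, Hspa1 differed from sham by -0.44 in PTE- and -2.04 in PTE+ mice, given as values only.

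Mice with high Hspa1 in the ipsilateral cortex also had high Hspa1 in the contralateral one. Of the 17 mice, 5 were above 75 TPM in both hemispheres, 12 were below 75 TPM in both, and 0 were above in 1 hemisphere alone. The 5 were sham mice 8_15, 8_16 and 9_11 and PTE- mice 8_13 and 8_14. The mark of 75 TPM was set after the values were seen, and these counts depend on it. With a mark between 80.7 and 143 TPM, sham mouse 8_16 would lie above it in the contralateral cortex alone. Between the lower and the higher contralateral libraries lay a gap from 52.4 to 143 TPM, so no correlation over all 17 mice is given for Hspa1a, Hspa1b or their sum. Within the 12 mice below 75 TPM, r was 0.48 for Hspa1. The p was 0.0313 by permutation within groups and 0.0689 after adjustment over the 11 relations. The ipsilateral libraries of injured mice include those that singled out Hspa1a, so this p is not independent of that choice. The SD between mice of the mean log2 level was 1.62, against an SD of 0.65 between hemispheres within a mouse. The largest gaps within a mouse were 80.7 against 348 TPM in sham mouse 8_16 and 101 against 361 TPM in PTE- mouse 8_14, with the contralateral library higher in both. In PTE+ mice the ipsilateral and contralateral values were 13.4 and 39.5 TPM in 8_10, 13.85 and 32.05 TPM in 9_17, and 11.7 and 7.67 TPM in 9_18.

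Hspa8 was the member most alike across hemispheres. Over 17 mice its ipsilateral and contralateral levels had r = 0.96 and rho = 0.95, and the permutation p within groups was 1e-05 for both, the smallest that 100000 permutations can give (0.00011 after adjustment over 11 relations). Without the 2 mice farthest from the median, r was 0.95, and it was 0.99 over the 7 mice of prefix 8 and 0.93 over the 10 of prefix 9. This r exceeded that of 99.8% of 10395 genes, whose median r was 0.46. Hspa8 ran from 533 and 559 TPM in sham mouse 9_10 to 1404 and 1532 TPM in PTE- mouse 8_14, so the libraries spanned 2.87-fold while the hemispheres of a mouse differed by at most 0.27 on the log2 scale. The SD of log2 levels was 0.40 between and 0.08 within mice. Hspa5 (r = 0.84, rho = 0.71), Hspd1 (r = 0.73, rho = 0.70) and Dnajb1 (r = 0.71, rho = 0.76) also passed after adjustment by permutation for both measures, with adjusted p of 0.000605, 0.00394 and 0.00077 for r and of 0.00636, 0.00636 and 0.00169 for rho. Without their 2 farthest mice, r was 0.73, 0.56 and 0.71, all under an unadjusted permutation p of 0.05. Within prefix 9, r was 0.72 for Hspa5, 0.41 for Hspd1 and 0.87 for Dnajb1, and within prefix 8 it was 0.98, 0.85 and 0.71.

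The remaining members had a lower r over the 17 mice. Hspb1 still passed for both measures, at r = 0.68 and rho = 0.58 (permutation p adjusted 0.00941 and 0.0309). Its r was 0.68 without its 2 farthest mice, 0.73 in prefix 8 and 0.39 in prefix 9. Over the 12 mice below 75 TPM of Hspa1, its r was 0.41 (permutation p = 0.210). Bag3 gave r = 0.47 and rho = 0.31 (adjusted 0.0555 and 0.262), and r fell to 0.17 without its 2 farthest mice. Hsp90aa1 (r = 0.36, adjusted permutation p = 0.139) and Hsph1 (r = 0.23, adjusted permutation p = 0.352) did not pass. Hsph1 had r = 0.71 within prefix 8 and -0.38 within prefix 9, and its SD within a mouse, 0.28, was as large as its SD between mice, 0.26. The libraries of a mouse share the animal and may share its day of preparation, which the sources used here do not give.

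**Figure D4:**
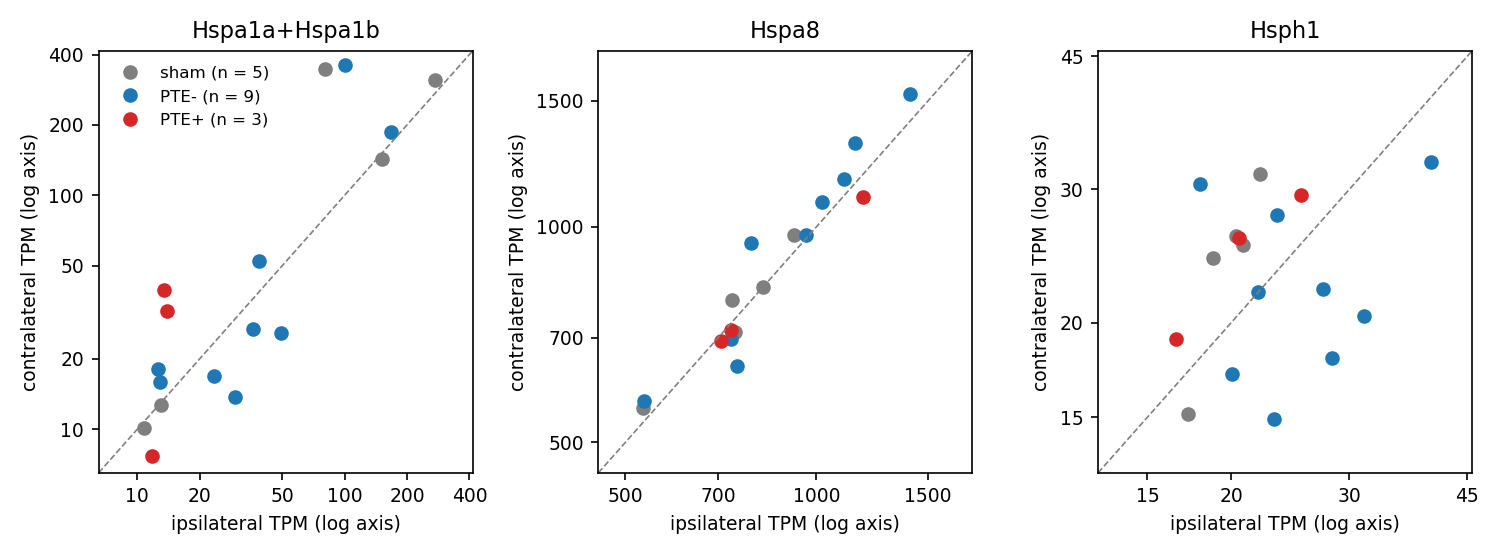
Each point is a mouse with both hemispheres, with ipsilateral TPM on the x axis and contralateral TPM on the y axis (log axes) and a dashed line of equality, for Hspa1a+Hspa1b, Hspa8 and Hsph1. Hspa8 follows the line with r = 0.96 and Hsph1 scatters with r = 0.23. Hspa1 splits into 5 mice above and 12 below 75 TPM, a mark set after the values were seen.

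No member passed the test between hemispheres over all mice. With the mouse as a block, 0 of 10 members were called in ipsilateral against contralateral, against 4.08% of 10395 genes. Hspb1 gave -0.22 ± 0.13 (limma unadjusted p = 0.102), and -0.28 (p = 0.0457) without sham mouse 9_9. Hspa1 was lower ipsilaterally in 9 and higher in 8 of 17 mice, with a mean log2 difference of -0.27 and a two-sided exact permutation p of 0.246 over sign changes. The ipsilateral libraries of injured mice include those that singled out Hspa1a, so for the pair and its sum this comparison is not independent of that choice. Hsp90aa1 gave 0.10 ± 0.08 and was higher ipsilaterally in 10 of 17 mice. Hspa8 gave -0.03 ± 0.04.

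In the 5 sham mice, which had no impact on either side, Bag3 was called lower in the ipsilateral cortex. Its ipsilateral and contralateral levels were 15.6 and 26.5 TPM in mouse 8_15, 14.03 and 18.8 TPM in 9_10, 12.7 and 14.97 TPM in 8_16, 15.8 and 17.9 TPM in 9_9, and 20.5 and 20.6 TPM in 9_11. The ipsilateral value was the smaller in all 5, by a margin that was wide in 8_15 and close to none in 9_11. The log2 difference was -0.31 ± 0.13 (limma with the mouse as a block, unadjusted p = 0.0301, adjusted p = 0.489), and an exact sign permutation gave p = 0.0625, the smallest that 5 mice allow. One of 10 members is close to the background of 8.61% of 10395 genes called there, most of them lower. Without 8_15 Bag3 gave -0.20 (p = 0.167), without 9_10 -0.28 (p = 0.0738), and without 8_16 Hsph1 was called as well (-0.37, p = 0.0479), each by limma and unadjusted. After centring each library on its median, the Bag3 difference was -0.19 (p = 0.134), and the median of all genes stood at -0.09.

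The hemisphere difference of injured mice was then compared with that of sham mice. Bag3 was again the member called, 1 of 10 against 6.28% of 10395 genes, with injured minus sham at 0.33 ± 0.15 (limma with the mouse as a block, unadjusted p = 0.0388, adjusted p = 0.730). The mean ipsilateral minus contralateral log2 level of Bag3 was -0.31 ± 0.28 (SD, n = 5) in sham, 0.04 ± 0.22 (SD, n = 9) in PTE- and -0.01 ± 0.39 (SD, n = 3) in PTE+ mice. The ranges overlapped. Without sham mouse 8_15 the value was 0.23 (p = 0.159), without sham mouse 9_10 0.31 (p = 0.0780), without PTE+ mouse 9_18 0.30 (p = 0.0582), and without sham mouse 8_16 Hsph1 was called beside Bag3 (0.44, p = 0.0486), each by limma and unadjusted. Hspa1a at 0.17 ± 0.42 and Hspa1b at 0.25 ± 0.43 gave no call, in a comparison that is not independent of the choice of Hspa1a either.

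Whether the other chaperones moved with Hspa1 from mouse to mouse was asked in each hemisphere. In the 19 ipsilateral libraries, Hspb1 gave r = 0.59 and rho = 0.64 with log2 Hspa1 (permutation p adjusted over 18 relations 0.0332 and 0.0248). They include the libraries that singled out Hspa1a, so the ipsilateral p values are not independent of that choice and serve as a description. For Hspb1, r was 0.67 without the 2 mice farthest from the median and 0.51 on values centred on their group. It was 0.85 within prefix 8 and 0.37 within prefix 9, and 0.17 (p = 0.579) over the 13 libraries below 75 TPM. Dnajb1 gave r = 0.51 and rho = 0.51 (permutation p adjusted 0.0786 and 0.104), and 0.36 (p = 0.239) over the same 13 libraries. On values centred on their group, r of Dnajb1 over the ipsilateral libraries was 0.73. The 6 other members had r from 0.02 for Hsp90aa1 to 0.24 for Hspa5, with adjusted permutation p of 0.713 to 0.972. Over the 13 contralateral libraries below the gap, r was 0.28 for Hspb1 (p = 0.349) and 0.08 for Dnajb1 (p = 0.800), and no member passed. The relation of Hspb1 to Hspa1 did not pass without the libraries with high Hspa1. Hspb1 itself was highest in contralateral libraries with much Hspa1, at 281 TPM in sham mouse 8_16 and 282 TPM in PTE- mouse 8_14. The other contralateral libraries above the gap had 172 TPM (PTE- mouse 8_13), 107 TPM (sham mouse 8_15) and 99.0 TPM (sham mouse 9_11). Below the gap, Hspb1 reached 118 TPM in PTE+ mouse 9_17 and 117 TPM in PTE- mouse 9_12.

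Outside the chaperones, the genes most like Hspa1 over the 19 ipsilateral libraries, among 10194 with a mean above 5 TPM, were Fos (r = 0.90), Egr1 (0.87), Ier2 (0.81), Junb (0.80) and Dusp1 (0.78). Fos and Junb encode subunits of the transcription factor AP-1, Egr1 a zinc finger factor, Ier2 a nuclear protein and Dusp1 a phosphatase of MAP kinases. Without the library of 9_14, their r was 0.91, 0.88, 0.82, 0.81 and 0.77. No r over all 18 contralateral libraries is given for any gene, because 5 of them stand apart in Hspa1. Fos, Egr1, Ier2, Junb and Dusp1 are among 15 immediate early genes, listed with earlier results of these data known. Such transcripts are induced within minutes of stimulation without new protein synthesis. The mean log2 level of the 15 gave r = 0.89 and rho = 0.85 with Hspa1 in the ipsilateral libraries, given as a description since these libraries also singled out Hspa1a and Fos. It was 0.81 without the 2 farthest mice, 0.85 on values centred on their group, 0.95 in prefix 8 and 0.81 in prefix 9. Over the 13 lower libraries of each hemisphere, r was 0.68 ipsilaterally and 0.40 (permutation p = 0.176) contralaterally. The 5 contralateral libraries with the most Hspa1 were also the 5 with the most Fos, at 202 to 831 TPM, while the next library had 94.2 TPM. In the ipsilateral cortex 3 of the 5 highest libraries were shared. These relations are across libraries that share a hemisphere's set of mice and an unknown depth.

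**Figure D5:**
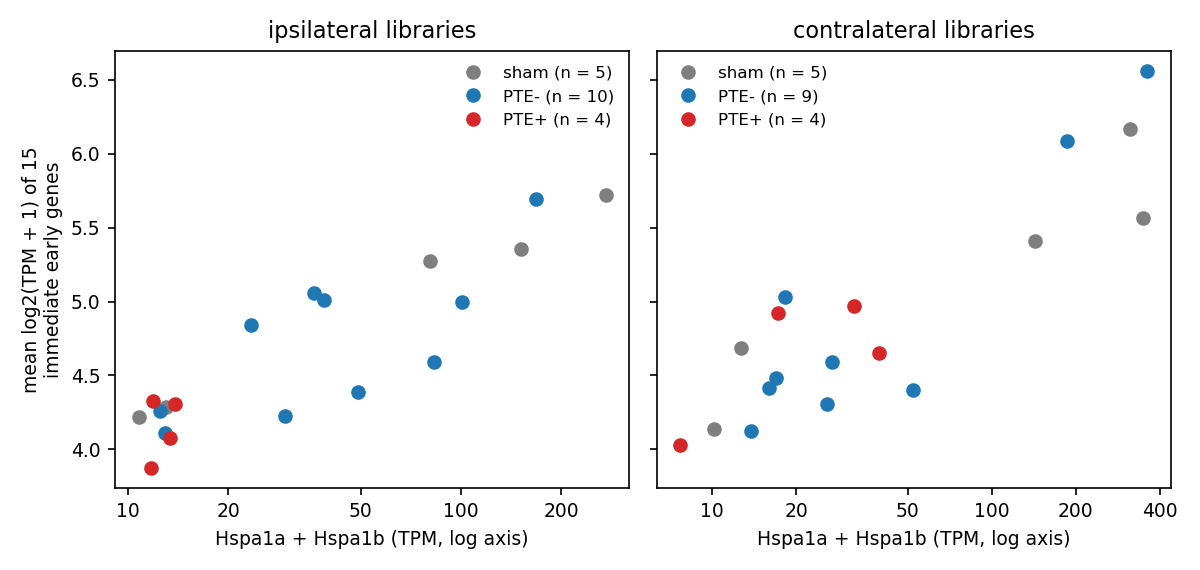
Each point is a library, with Hspa1a + Hspa1b in TPM (log axis) against the mean log2(TPM + 1) of 15 immediate early genes, by hemisphere and group. Ipsilateral points rise along a band with r = 0.89, and in the contralateral cortex 5 libraries at 143 to 361 TPM stand apart from 13 at 52.4 TPM or less.

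The immediate early genes were also compared between groups. In the ipsilateral contrast of PTE+ and PTE-, which also singled out Fos, their summed level was 381 to 554.5 TPM in PTE+, 430 to 1594 TPM (median 804) in PTE- and 525 to 1599 TPM in sham libraries. All 12 tested genes of the list had lower estimates in PTE+, and the 4 called were Fos (-1.78), Egr1 (-1.31), Junb (-1.11) and Ier2 (-0.70), given as a description beside the 0.573% of all genes called. Contralaterally, 12 of 14 genes had lower estimates in PTE+ and 0 were called (2.79% of all genes), with sums of 417 to 889 TPM in PTE+ and 478 to 2820 TPM in PTE- libraries. Against sham, 11 of 12 ipsilateral and 14 of 14 contralateral genes had lower estimates in injured mice, and the calls were Nr4a1 (-0.91) ipsilaterally and Klf6 (-0.32) contralaterally, where 1.62% and 4.05% of all genes were called. The part of these genes in the Hspa1 values was not tested.

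The wider chaperone network was examined in lists of related genes. Of 36 other genes listed as cytosolic chaperones and co-chaperones, 35 were tested in injured against sham ipsilaterally. There 24 had higher and 11 lower estimates, and Dnaja4, an Hsp40, was the 1 gene called beside 1.62% of all genes (0.55 ± 0.18, limma unadjusted p = 0.00540, adjusted p = 0.9997). The list had a median of 0.07, beside -0.01 over all genes. In the contralateral cortex 15 were higher and 20 lower and 0 were called, with a median of -0.02 beside -0.07. Between contralateral PTE+ and PTE- mice, 12 of 34 were higher and 22 were lower. Hspa12b, a divergent Hsp70 known from endothelium, was the 1 gene called (0.75 ± 0.29, unadjusted limma p = 0.0194), beside 2.79% of all genes. Endothelial markers had higher estimates there for 5 of 5 genes (median 0.72), and their part in the Hspa12b value was not tested. The 8 subunits of TRiC, the cytosolic chaperonin that folds actin and tubulin, had 0 calls in each of the 9 comparisons. Of the list of 21 endoplasmic reticulum chaperones and unfolded protein response genes, 18 were tested in injured against sham ipsilaterally. Creld2, an endoplasmic reticulum stress gene, was the 1 gene called (0.35 ± 0.17, unadjusted limma p = 0.0474), beside 1.62% of all genes. None was called in the contralateral group comparisons. The 9 mitochondrial chaperones and proteases had 0 calls in each of the 9 comparisons.

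Over the hemispheres, Hspa12b (-0.30) and Dnajb9 (-0.27), an Hsp40 of the endoplasmic reticulum, were called lower ipsilaterally over all mice, 1 of 35 and 1 of 18 genes tested beside 4.08% of all genes. Endothelial markers had lower ipsilateral estimates for 5 of 5 genes with 4 called (median -0.42), 2 of 4 mural markers were called lower, and their part in the Hspa12b value was not tested. The endothelial sum was 277 to 1442 TPM in ipsilateral and 385 to 2120 TPM in contralateral libraries, and the mural sum 133 to 437 and 149 to 489 TPM. In sham mice Hspa4 (-0.43), an Hsp110 relative, Dnajb4 (-0.39) and Hspa13 (-0.32) were called lower ipsilaterally. They were 3 of the 35 tested genes listed as cytosolic, a share close to the 8.61% of all genes called. The list median was -0.13 beside -0.09 for all genes. For the hemisphere difference of injured against sham mice, Dnaja4 (0.53), Hspa4 (0.46) and Hspb8 (0.42), a small heat shock protein that partners with Bag3, were called among 35, and Eif2ak3 (0.43), which encodes the stress kinase PERK, among 18, beside 6.28% of all genes. The list medians there were 0.08 and 0.11 beside 0.08 for all genes. The summed level of the cytosolic list ran from 2526 to 3615 TPM over all libraries, with group medians of 2946 to 3157 TPM.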

How the data were processed

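RNA of ACSA-2 bead-captured astrocytes from papain-dissociated cortex was sequenced in 37 libraries of 20 mice. The authors trimmed reads with Trim Galore 0.6.4, aligned them with Bowtie2 2.4.1 to mm10, quantified them with RSEM 1.2.28 and deposited TPM values, 1 table per hemisphere. Their DESeq2 1.36.0 test used raw counts, which were not used here. TPM keeps no depth, so no counting error could be given. The annotation release is not given in the sources used here.

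Values were analysed as log2(TPM + 1) with limma 3.58.1 (trend) in R 4.3.3, for genes whose mean exceeded 5 TPM in any group compared. A call needed an unadjusted p under 0.05 and a fold of at least 1.2, and Benjamini-Hochberg adjustment ran over all genes tested. Hspa1a + Hspa1b was tested by exact permutation over mice, and correlations by 100000 permutations (Python 3.11.15, scipy 1.17.1). Replicates are mice. Hemisphere fits had the mouse as a block, because the labels give each library's mouse, and deviations of its libraries correlated at a median of 0.417 (0.00605 to 0.685, above 0.1 in 16 of 17 mice). The limma fits and permutation tests were tested on simulated data. Alternatives were another pseudocount, filters, quantile and median scaling, array weights, the prefix as a covariate, no block, and each sham and PTE+ mouse and the library of 9_14 left out in turn. Named genes were the members, at most 4 called genes of each list and comparison, and the 5 genes most correlated with Hspa1. The members and lists were chosen with earlier results of these data known. Positions are from GENCODE vM21 on GRCm38, upstream sequences from RefSeq.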

Additional observations from a re-analysis of the deposited data

Results flagged for a closer look

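Of 66 groups of libraries of a member or the sum, 3 held a library far from the others by Dixon's criterion, which chance gives in about 1 of 20 groups. Hspa1a in the ipsilateral PTE+ group was highest in mouse 8_10 at 5.42 TPM, and the next library was at 4.26 TPM. Hspa5 in the same group was lowest in the same mouse at 214.61 TPM, and the next library was at 312.05 TPM. Dnajb1 in the contralateral PTE- group was highest in mouse 8_14 at 38.48 TPM, and the next library was at 24.61 TPM. The ipsilateral minus contralateral level of Bag3 differed between injured and sham mice by 0.3331 on the log2 scale (limma with the mouse as a block, unadjusted p = 0.0388, adjusted p = 0.730).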

How the results depend on the processing

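No called value changed sign under the alternatives run. Of the log2 fold changes of single members under them, 1409 stayed on their side of the threshold, 15 passed it and 16 no longer did. The number of members called in ipsilateral PTE+ against PTE- went from 2 to 0 with adjusted p. It went from 0 to 1 with array weights in contralateral PTE+ against PTE- and in contralateral PTE+ against sham. Those 2 fits called 828 of 10423 and 1114 of 10640 genes. For sham hemispheres it went from 1 to 0 with quantile scaling, median centring, adjusted p and no replicate block (Bag3 p = 0.114), and for the hemisphere difference of injured against sham mice from 1 to 0 with these (p = 0.139 without the block) and with array weights. With 1 sham or PTE+ mouse left out (of PTE- mice, only the library of 9_14 was left out), the count ran from 0 to 1 for ipsilateral injured against sham and for all hemispheres, and from 0 to 2 for contralateral injured against sham, contralateral PTE+ against sham, sham hemispheres and the hemisphere difference. Causes were not tested, beyond adjusted p being stricter by construction. Hsp90aa1 between hemispheres gave r = 0.59 (permutation p = 0.0264) after median centring, against 0.36. Groups of 4 or 5 mice and the wide spread of Hspa1 limit what could be detected, and TPM gives no depth. The mark of 75 TPM was added after seeing the data.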
